A study of Rattus norvegicus with 23 samples.

Results

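The genes described here encode the subunits of the respiratory chain and of ATP synthase that are made from nuclear DNA, in 2 rat kidney cell lines exposed to an acidic medium. They were chosen by symbol from the protein-coding genes of the rat table: symbols of the Nduf series with the letters a, b, c, s or v, Sdha to Sdhd, the Uqcr series, Cox4 to Cox8, Cyc1 and the Atp5 series. A gene also needed at least 10 counts in at least 1 sample. Of 92 matching protein-coding symbols, 87 passed this limit, out of 30452 genes in the table. They comprise 37 genes of complex I, 4 of complex II, 8 of complex III, 16 of complex IV and 15 of complex V, and besides these 80 subunit genes 7 Ndufaf genes, which encode assembly factors of complex I and are counted apart. Ndufa4 and Ndufa4l2 were counted with complex IV.

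NRK-52E cells, labelled NRKE and epithelial, and NRK-49F cells, labelled NRKF and fibroblasts, are established lines from rat kidney. All samples had grown in DMEM with 10% FCS, were kept without FCS for 24 h, and were then held for 48 h at pH 7.4 or at pH 6.0, the acidic pH being set with HCl. Each pH of NRK-52E cells had n = 6 samples, NRK-49F cells had n = 6 at pH 7.4 and n = 5 at pH 6.0, and the labels place the samples in sample groups 1 and 3 (NRK-52E) or 4 and 6 (NRK-49F). Each cell type was represented by a single line, so a difference between the lines cannot be told apart from one between epithelial cells and fibroblasts. The labels do not say whether samples were separate cultures, and the p-values then measure only the spread between these samples, which may be technical.

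The respiratory chain passes electrons from NADH (complex I) and from succinate (complex II) through ubiquinone to complex III, from there through cytochrome c to complex IV and on to oxygen, and complexes I, III and IV pump protons out of the mitochondrial matrix. Complex V, the ATP synthase, lets the protons flow back and makes ATP. Complex II is encoded wholly in the nucleus and is also an enzyme of the citric acid cycle, while the other complexes combine nuclear subunits with subunits made from mitochondrial DNA. Kidney tubule cells are rich in mitochondria and use oxidative phosphorylation to power ion transport, and tubular acid secretion is one of the tasks of the kidney.

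The promoters of 5 of the 8 members that rose at pH 6.0 in both lines are shown here, so that the letters before their starts can be set beside their changes. Cox6a2 (ENSRNOG00000019851) lies on the minus strand with its window at chr1:192219667-192219966, Atp5if1 (ENSRNOG00000013300) on the minus strand at chr5:150026628-150026927, Sdha (ENSRNOG00000013331) on the plus strand at chr1:30764303-30764602, Sdhd on the minus strand at chr8:59850592-59850891 and Ndufs7 on the minus strand at chr7:10110449-10110748. The windows are those of RefSeq on build GRCr8, which is not the build of the counts, and run 5′ to 3′ along the gene from 250 bases before to 50 bases after its start. Capitals mark matches to 5 sets of letters, searched on both strands: GCGCANGCG (nuclear respiratory factor 1), CCGGAAG (ETS factors such as GABPA), AAGATGGC (YY1), GGGCGG (SP1) and TGATGCAA (pairs of a C/EBP and an ATF factor).
Cox6a2: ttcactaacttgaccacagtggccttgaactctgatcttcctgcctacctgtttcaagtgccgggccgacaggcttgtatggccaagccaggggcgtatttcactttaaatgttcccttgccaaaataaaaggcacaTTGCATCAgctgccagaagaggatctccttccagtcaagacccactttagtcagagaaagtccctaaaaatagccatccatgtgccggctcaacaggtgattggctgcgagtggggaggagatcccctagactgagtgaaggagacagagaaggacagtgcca
Atp5if1: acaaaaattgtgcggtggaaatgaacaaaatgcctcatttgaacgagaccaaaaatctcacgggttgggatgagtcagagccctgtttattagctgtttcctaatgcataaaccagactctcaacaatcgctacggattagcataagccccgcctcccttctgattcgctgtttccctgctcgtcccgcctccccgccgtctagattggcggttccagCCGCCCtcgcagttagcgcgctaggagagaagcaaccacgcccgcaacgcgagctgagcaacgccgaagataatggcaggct
Sdha: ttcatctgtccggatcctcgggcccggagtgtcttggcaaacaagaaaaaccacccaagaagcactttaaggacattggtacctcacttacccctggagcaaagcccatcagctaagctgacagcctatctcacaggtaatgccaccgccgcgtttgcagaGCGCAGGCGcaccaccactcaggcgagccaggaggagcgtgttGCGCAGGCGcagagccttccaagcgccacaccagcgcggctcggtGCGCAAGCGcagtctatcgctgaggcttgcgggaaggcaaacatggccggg
Sdhd: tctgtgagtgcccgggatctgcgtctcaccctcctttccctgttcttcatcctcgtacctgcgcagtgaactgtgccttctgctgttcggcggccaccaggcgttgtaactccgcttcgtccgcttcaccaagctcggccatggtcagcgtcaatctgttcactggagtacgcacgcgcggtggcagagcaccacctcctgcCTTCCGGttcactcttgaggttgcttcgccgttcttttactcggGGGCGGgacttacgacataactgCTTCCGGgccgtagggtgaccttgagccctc
Ndufs7: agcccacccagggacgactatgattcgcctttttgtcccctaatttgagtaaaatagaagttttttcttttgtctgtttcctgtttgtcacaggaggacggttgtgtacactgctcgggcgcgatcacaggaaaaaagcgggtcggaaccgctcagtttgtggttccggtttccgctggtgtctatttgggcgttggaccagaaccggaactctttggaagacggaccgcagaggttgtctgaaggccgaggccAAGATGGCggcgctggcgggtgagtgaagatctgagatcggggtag
Sdha held 3 matches to the nuclear respiratory factor 1 letters, Sdhd 2 to the ETS letters and 1 to the SP1 letters, Ndufs7 1 to the YY1 letters and Atp5if1 1 to the SP1 letters. Cox6a2 held none of these 4 and a single match to the C/EBP and ATF letters, which begins 113 bases before the start. Of the members not shown that also rose in both lines, Ndufab1 held 0 matches to any of the 5 sets. Ndufaf4 held 2 to the nuclear respiratory factor 1 letters and 1 to the SP1 letters, and no promoter was found for Ndufaf6.

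A promoter of the same symbol and chromosome was found for 71 of the 87 members, 2 further symbols lay on another chromosome, and 14 had no entry. The nuclear respiratory factor 1 letters were in 17 of the 71 promoters (23.9%) against 5.8% of all 33469 promoters of the same length. The ETS letters were in 20 (28.2% against 8.75%), the YY1 letters in 14 (19.7% against 3.17%) and the SP1 letters in 31 (43.7% against 33.1%). Either of the first 2 sets was in 34 members (47.9% against 13.4%), while the C/EBP and ATF letters were in Cox6a2 alone among the members (1.41% against 0.795%). Matches to different sets overlapped in 0 members. By response, either of the first 2 sets was in 5 of 13 promoters of members higher in acidic NRK-52E cells, 7 of 8 of those lower there, 4 of 10 of those higher in acidic NRK-49F cells and 21 of 45 of those regulated in neither line. These are descriptions of letters, with no test. The 33469 promoters were not limited to expressed or protein-coding genes, as the members were. The shares therefore do not show a difference between the members and other expressed genes.

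Total counts ranged from 16412564 to 34250535 per sample. The 37 genes of the mitochondrial genome in the table, 13 of them protein-coding, were listed at 0 counts in all 23 samples, so the mitochondrial partners of these subunits are not described. Levels are given in FPM, the fragments of a gene per 1000000 fragments of the TMM-scaled library. The epithelial markers Cdh1, Epcam, Krt18, Cldn4, Cldn7 and Esrp1 were at or near 0 in NRK-52E cells, with at most 12 counts in a sample. At pH 7.4 Krt8 had a median of 472 FPM in NRK-52E and 777 FPM in NRK-49F cells, and Krt7 had 19.6 and 1.51 FPM (4.08 and 0.389 FPM at pH 6.0). Of the 10 fibroblast markers Thy1 was at or near 0 in both lines, and Dcn was at 0 in NRK-52E with a median of 4.27 FPM in NRK-49F cells at pH 7.4. Higher medians in NRK-49F cells at that pH were also those of Pdgfra (301 against 1.26 FPM), Vcam1 (264 against 0.611), Col1a1 (6042 against 52.7), Col1a2 (4531 against 5.79), Lum (94.3 against 0.114), Twist1 (76.6 against 0.62) and Pdgfrb (84.9 against 41.3), while Col3a1 was the higher one in NRK-52E cells (6017 against 1169 FPM) and made up most of their sum. The sums of these markers were 4903 to 8102 FPM in NRK-52E and 10583 to 13639 FPM in NRK-49F cells at pH 7.4. At pH 6.0 these sums were 1830 to 3110 and 7416 to 9889 FPM, the sums of 8 epithelial markers went from 463 to 683 down to 199 to 265 FPM and from 668 to 1207 down to 438 to 697 FPM, and those of 5 markers of other cells from 5.89 to 8.77 up to 11.7 to 16.1 FPM and from 32.3 to 45.9 up to 226 to 260 FPM. These last sums were mostly Cd68 for NRK-49F, whereas Myh11 had the higher median at both pH values for NRK-52E cells (5.71 and 8.20 FPM, against 1.77 and 4.14 FPM for Cd68). The part of these markers in the results was not tested.

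In every condition the library with the highest summed level of the 80 subunits was marked. This was A035 at pH 7.4 (12575 FPM) and A038 at pH 6.0 (11353 FPM) for NRK-52E cells, and A052 at pH 7.4 (13972 FPM) and A042 at pH 6.0 (16027 FPM) for NRK-49F cells. A035 stood above 7532 to 9063 FPM in the other 5 libraries of its condition. The same libraries were high in the summed level of 118 genes of cytosolic ribosomal proteins, which ranged from 59268 to 141776 FPM over all libraries. After subtracting the mean of each condition, both sums had a Pearson coefficient of 0.97 over the 23 libraries, given as a description, since both are shares of the same libraries. The subunit sum likewise had a coefficient of -0.96 with the TMM factor, and a low factor raises the FPM of a library. A042 had 16027 FPM with TMM and 12884 per 1000000 raw counts. By raw counts the 4 libraries were also the highest of their conditions. Because many subunits move together between libraries, the counts of regulated members are given with all libraries and without these 4. The 4 were chosen by the members' own summed level, so fits without them are not independent of the members' values. The part of this shared movement in the results was not tested.

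**Figure D1:**
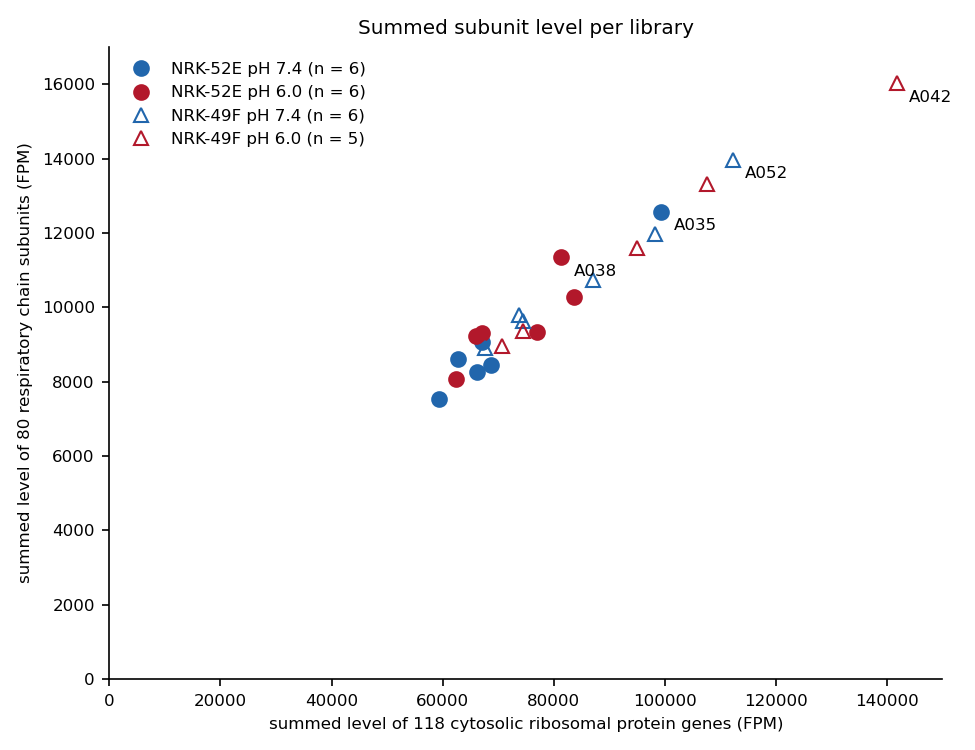
Summed level of the 80 subunit genes (vertical axis, FPM) against the summed level of 118 cytosolic ribosomal protein genes (horizontal axis, FPM), 1 point per library, by cell line and pH. The libraries A035, A038, A052 and A042 lie highest in their conditions, up to 16027 FPM. After subtracting the mean of each condition, both sums had a Pearson coefficient of 0.97.

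Exposure of NRK-52E cells to pH 6.0 changed 27 of the 83 members tested, 18 upwards and 9 downwards, and exposure of NRK-49F cells changed 11, all upwards. Regulated means a Benjamini-Hochberg adjusted p under 0.05 in edgeR's quasi-likelihood test over 14777 genes. The share of regulated members in NRK-52E cells (32.5%) was below the share of all genes, of which 61.2% were regulated, 24.7% upwards and 36.6% downwards. In NRK-49F cells, 13.3% of members were regulated, against 28.9% of all genes, 14.5% upwards and 14.4% downwards. The median log2 fold change of the members was 0.09 in NRK-52E cells, with -0.12 over all genes tested, and 0.16 in NRK-49F cells, with 0.00 over all genes. The members also had a wider spread between libraries: the median standard error of their log2 fold changes was 0.16 in each line, against 0.13 (NRK-52E) and 0.14 (NRK-49F) over 10869 genes of like level, of which 64.5% and 31.2% were regulated. The lower share of regulated members did not hold in every fit, and it was near that of all genes in sample group 1 alone. Another fit had as a covariate the log2 summed level of ribosomal proteins, centred on each condition. There 63.9% of members against 68.7% of all genes were regulated in NRK-52E and 47% against 40.7% in NRK-49F cells. This covariate leaves differences between conditions unadjusted. Within conditions it followed the summed subunit level (Pearson coefficient of 0.97), so a gain in member calls was largely built in. By complex, the median log2 fold changes in NRK-52E and NRK-49F cells were 0.01 and 0.14 for complex I, 0.34 and 0.33 for complex II, 0.20 and 0.16 for complex III, 0.21 and 0.10 for complex IV, 0.14 and 0.14 for complex V, and 0.21 and 0.38 for the Ndufaf genes. In these bulk samples, fewer cells and less RNA of a gene per cell cannot be told apart.

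The split between rises and falls in NRK-52E cells depended on the scaling and on the libraries. With RLE size factors 25 members rose and 6 fell, with each line scaled and fitted alone 33 rose and 7 fell, and without the 4 libraries named above 40 rose and 3 fell, of 43 regulated (51.8% of members). Over all genes 61.2%, 62.3% and 62.4% were regulated in these 3 fits, and of those regulated 43.3%, 48.9% and 48.5% rose, against 40.3% with all libraries and TMM. The 3 falls left without these libraries were Ndufa1, Ndufaf1 and Atp5f1a. The libraries had been chosen by the members' own sums. A035 at pH 7.4 stood further above the rest of its condition than A038 at pH 6.0, so part of this shift towards rises follows from the choice. Without A035 alone 35 members were regulated (42.2%, against 61.6% of all genes), and without A021 alone 19 (22.9%, against 58.6%). In NRK-49F cells 14 members were regulated without the 4 libraries (16.9%, against 27.4% of all genes), with 0 falls. Without A040, A042 or A055 8 were (9.64%, against 26%, 24.5% and 25.2% of all genes). Without A043 or A052 17 were (20.5%, against 26.7% and 28.8% of all genes).

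Of the 83 members, 8 rose in both lines (9.64%, against 6.94% of all genes), 0 fell in both and 0 moved in opposite directions. Of all 14777 genes, 1387 fell in both lines and 618 moved in opposite directions. Since 0 members were called lower in NRK-49F cells, a joint fall could not occur. The 8 that rose in both were Sdha and Sdhd of complex II, Ndufs7 and Ndufab1 of complex I, Cox6a2 of complex IV, Atp5if1 of complex V and the assembly factors Ndufaf4 and Ndufaf6. Another 3 rose in NRK-49F cells and were not called in NRK-52E cells, namely Sdhc, Ndufc1 and Ndufaf5, and 53 were called in neither line. Falls were called in NRK-52E cells alone, but a call in a single line does not show that the lines differ, which was tested separately and is given further down.

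**Figure D2:**
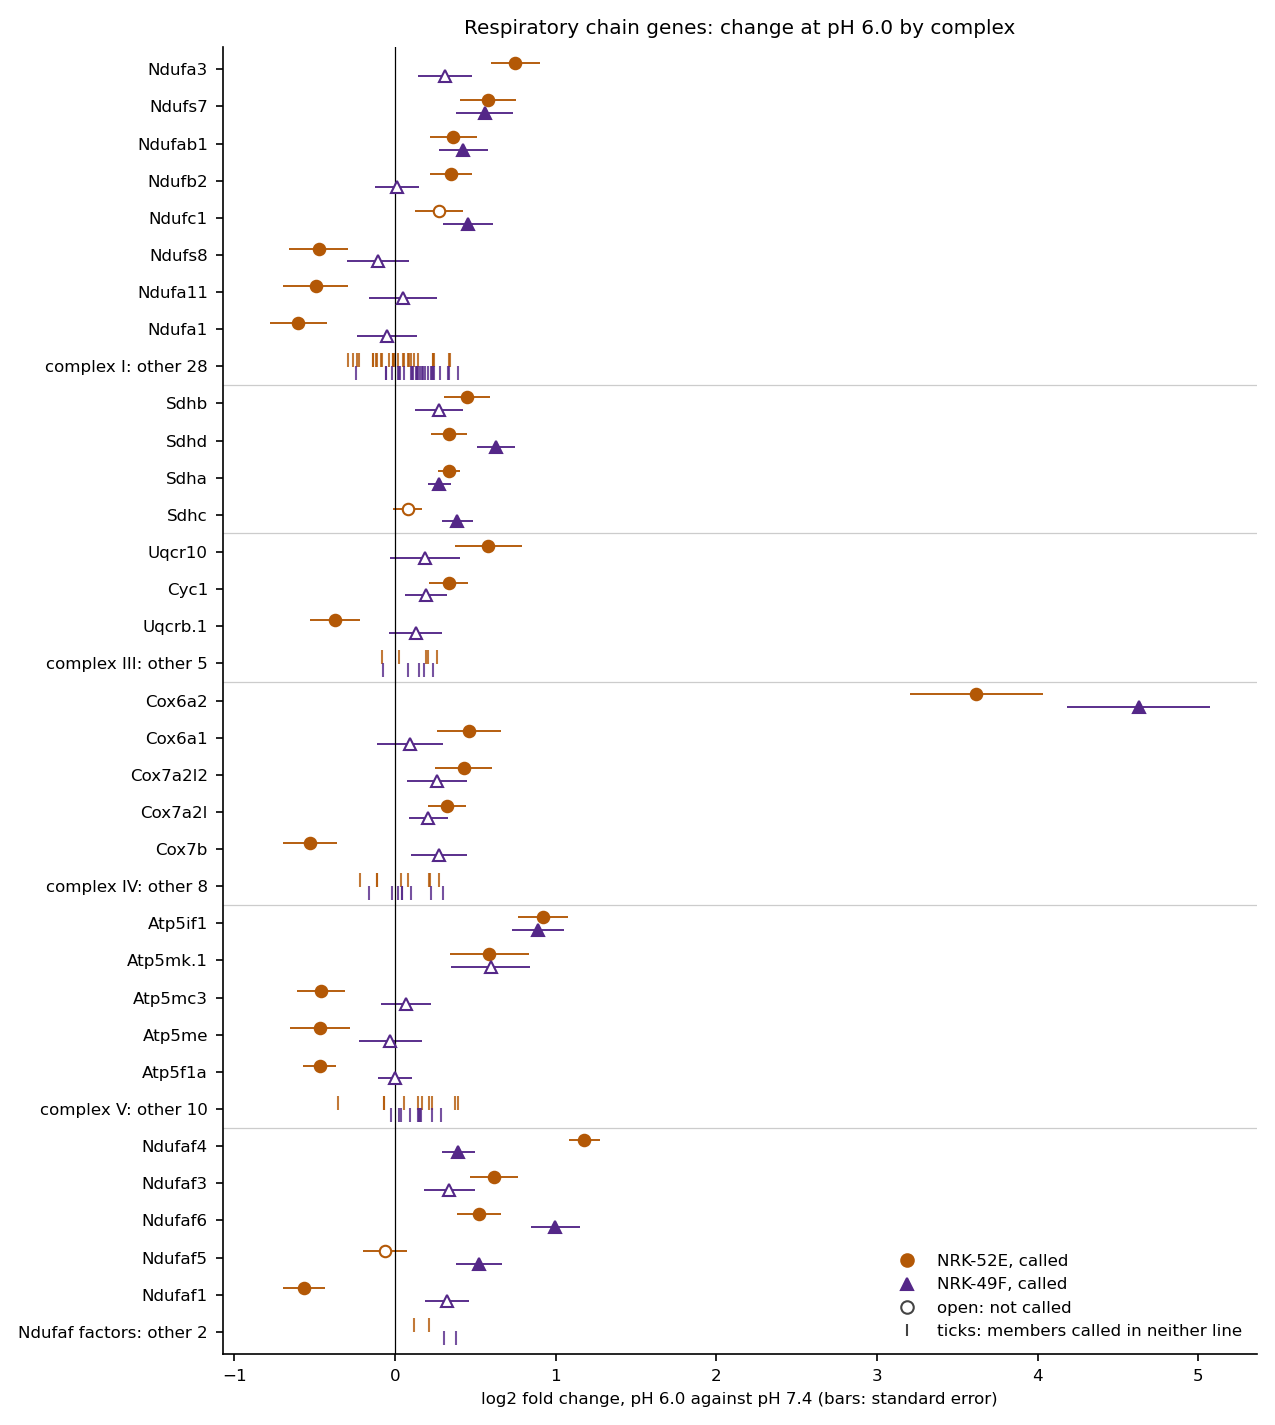
Log2 fold change from pH 7.4 to pH 6.0 (horizontal axis) of each tested member by complex, in NRK-52E and NRK-49F cells, with bars for the standard error. Filled symbols were regulated and open symbols were not, and members regulated in neither line are drawn as ticks on a row of their own. Most members lie close to 0, Cox6a2 lies far out at 3.62 and 4.63, and all regulated members of NRK-49F cells lie above 0.

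Complex II had the highest share of regulated subunits, 3 of 4 in each line (75%). Of all genes 61.2% were regulated in NRK-52E and 28.9% in NRK-49F cells. With only 4 genes, the share in NRK-52E cells is not far from that of all genes. Its subunits, the flavoprotein Sdha, the iron-sulphur protein Sdhb and the membrane anchors Sdhc and Sdhd, together reached 622 ± 65 FPM (SD, n = 6) at pH 7.4 and 766 ± 63 FPM (n = 6) at pH 6.0 in NRK-52E cells, a ratio of 1.23. In NRK-49F cells the sum was 508 ± 50 FPM (n = 6) and 655 ± 90 FPM (n = 5), a ratio of 1.29. Those that rose were Sdha, Sdhb and Sdhd in NRK-52E and Sdha, Sdhc and Sdhd in NRK-49F cells.

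Sdha, which binds succinate and carries the FAD, ranged from 256 to 311 FPM around a median of 278 FPM at pH 7.4 and from 318 to 391 FPM around 343 FPM at pH 6.0 in NRK-52E cells. For NRK-49F cells it ranged from 176 to 200 FPM with a median of 185 FPM at pH 7.4, and the 5 acidic samples had 241 (A042), 214 (A043), 231 (A054), 230 (A055) and 208 FPM (A056). The pH groups did not overlap in either line. The log2 fold changes were 0.33 ± 0.07 (SE, adjusted p = 0.00014) and 0.28 ± 0.07 (adjusted p = 0.0045), small in size, with the smallest standard errors of the 8 members that rose in both lines.

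Sdhd had 90.2 to 132 FPM at pH 7.4 and 117 to 158 FPM at pH 6.0 in NRK-52E cells, with medians of 110 and 139 FPM, and these ranges overlapped. In NRK-49F cells it had 62.1 to 94.5 FPM with a median of 75.6 FPM at pH 7.4, and 147 (A042), 97.1 (A043), 116 (A054), 126 (A055) and 96.7 FPM (A056) at pH 6.0, without overlap. The log2 fold changes were 0.34 ± 0.11 (adjusted p = 0.013) and 0.63 ± 0.12 (adjusted p = 0.00027). Sdhb rose by 0.45 ± 0.14 in NRK-52E cells, where its medians were 87.6 and 127 FPM, and its change in NRK-49F cells was 0.28 ± 0.15 (adjusted p = 0.18). Sdhc rose by 0.39 ± 0.10 in NRK-49F cells, with medians of 145 and 203 FPM, and its change in NRK-52E cells was 0.08 ± 0.09 (adjusted p = 0.47). The difference between the lines did not pass the test for Sdhb (adjusted p = 0.54) or Sdhc (adjusted p = 0.063).

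Complex I, the entry point for NADH, was represented by 36 tested subunits, of which 4 rose and 3 fell in NRK-52E and 3 rose in NRK-49F cells. The summed level of its subunits was 2478 ± 549 FPM (n = 6) at pH 7.4 and 2544 ± 316 FPM (n = 6) at pH 6.0 in NRK-52E cells, and 3212 ± 613 FPM (n = 6) and 3494 ± 973 FPM (n = 5) in NRK-49F cells. These differences were smaller than the SD within conditions.

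Among the core subunits that carry the flavin or iron-sulphur clusters, Ndufs7, which holds the cluster next to the ubiquinone site, rose in both lines. It had 73.2 to 130 FPM with a median of 77.4 FPM at pH 7.4 and 107 to 153 FPM with a median of 121 FPM at pH 6.0 in NRK-52E cells, and 65.0 to 112 FPM with a median of 81.7 FPM at pH 7.4 in NRK-49F cells. The acidic NRK-49F samples had 178 (A042), 90.9 (A043), 111 (A054), 148 (A055) and 94.2 FPM (A056). The groups overlapped in both lines, in NRK-52E cells through A035 at pH 7.4. The log2 fold changes were 0.58 ± 0.17 (adjusted p = 0.0055) and 0.56 ± 0.18 (adjusted p = 0.021), and the call in NRK-49F cells was lost without A040, A042 or A055, at the lowest with 0.39.

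Ndufs8, another iron-sulphur subunit, fell by 0.48 on the log2 scale in NRK-52E cells, from a median of 73.3 to 56.2 FPM, and the call was lost without A035, A024 or A025 and without the 4 libraries (-0.28, adjusted p = 0.063). Ndufs1, the largest iron-sulphur subunit, had narrow ranges and small changes of 0.12 ± 0.06 and 0.13 ± 0.06 (adjusted p = 0.081 and 0.099). The changes of Ndufv1, which binds NADH, were 0.06 ± 0.15 and 0.02 ± 0.16, and those of Ndufv2 -0.09 ± 0.16 and 0.13 ± 0.16, none past the test.

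Of the accessory subunits, which surround the core, Ndufab1, the mitochondrial acyl carrier protein, rose in both lines by 0.36 ± 0.15 and 0.43 ± 0.15 (adjusted p = 0.036 and 0.039), close to the threshold. Its call was lost when any of 7 samples was left out in NRK-52E and any of 8 in NRK-49F cells. Ndufa3 had the largest rise of complex I in NRK-52E cells, 0.75 ± 0.15 (adjusted p = 0.00017), at a low level of 2.67 to 3.17 FPM at pH 7.4 and 3.80 to 5.82 FPM at pH 6.0, without overlap. Ndufb2 rose by 0.35 ± 0.13 in NRK-52E cells, a call lost without A021, A023 or A038, and Ndufc1 by 0.45 ± 0.16 in NRK-49F cells, a call that was lost when any of 6 samples was left out, at the lowest with 0.26. Ndufa1 fell by 0.60 on the log2 scale in NRK-52E cells (SE 0.18, adjusted p = 0.0057), from a median of 32.5 to 22.9 FPM, and by 0.38 without the 4 libraries (adjusted p = 0.028). Ndufa11 fell by 0.49 (SE 0.20, adjusted p = 0.039), a call that was lost without A035, A024, A025, A036 or A037, at the smallest with -0.29.

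The assembly factors of complex I are not part of the finished enzyme but bring its modules together. Of the 7 Ndufaf genes, 3 rose and 1 fell in NRK-52E cells and 3 rose in NRK-49F cells. Their summed level went from 99.3 ± 11.8 FPM (n = 6) to 133 ± 12 FPM (n = 6) in NRK-52E and from 98.9 ± 9.5 FPM (n = 6) to 131 ± 27 FPM (n = 5) in NRK-49F cells, ratios of 1.34 and 1.33.

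Ndufaf4, which acts early in assembly with Ndufaf3, had 10.9 to 15.02 FPM with a median of 12.0 FPM at pH 7.4 and 24.4 to 31.4 FPM with a median of 28.0 FPM at pH 6.0 in NRK-52E cells, without overlap. The NRK-49F samples had 4.63 to 5.39 FPM with a median of 5.09 FPM at pH 7.4, and at pH 6.0 7.03 (A042), 5.37 (A043), 6.68 (A054), 6.93 (A055) and 7.22 FPM (A056), where only A043 reached down into the range of pH 7.4. The log2 fold changes were 1.18 ± 0.10 (adjusted p = 2.5e-10) and 0.40 ± 0.10 (adjusted p = 0.0059). The rise was larger in NRK-52E cells by 0.78 ± 0.14 (adjusted p = 9.9e-05).

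Ndufaf6, which is needed early in assembly, had 10.7 to 14.9 FPM with a median of 11.1 FPM at pH 7.4 and 12.7 to 19.6 FPM with a median of 16.8 FPM at pH 6.0 in NRK-52E cells, with overlap. In NRK-49F cells it had 3.34 to 4.66 FPM with a median of 4.01 FPM at pH 7.4, and 11.1 (A042), 7.62 (A043), 6.75 (A054), 8.73 (A055) and 5.78 FPM (A056) at pH 6.0, all above pH 7.4. It rose by 0.52 ± 0.14 (adjusted p = 0.0022) and 1.00 ± 0.15 (adjusted p = 2e-05), and the difference between the lines did not pass the test (adjusted p = 0.065).

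Ndufaf3 rose by 0.62 ± 0.15 in NRK-52E cells (adjusted p = 0.001), with medians of 28.0 and 41.9 FPM. Ndufaf5, which hydroxylates a residue of Ndufs7, rose by 0.52 ± 0.14 in NRK-49F cells (adjusted p = 0.0071), with medians of 20.5 and 30.5 FPM. Ndufaf1, a factor for the membrane arm, was the only Ndufaf gene to fall, by 0.57 in NRK-52E cells (SE 0.13, adjusted p = 0.00069), from 11.1 to 15.7 FPM at pH 7.4 to 6.48 to 9.34 FPM at pH 6.0 without overlap. In NRK-49F cells the change of Ndufaf1 was 0.32 ± 0.14 (adjusted p = 0.081). Ndufaf2 and Ndufaf7 passed the test in neither line, at 0.12 and 0.21 in NRK-52E and 0.38 and 0.30 in NRK-49F cells.

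Complex III carries electrons from ubiquinol to cytochrome c. All 8 of its members were tested, 2 rose and 1 fell in NRK-52E cells, and 0 were called in NRK-49F cells. Cyc1, the subunit with the haem that hands electrons to cytochrome c, had medians of 118 and 149 FPM in NRK-52E cells and rose by 0.33 ± 0.12 (adjusted p = 0.023), a call lost without A021 or A038. The accessory subunit Uqcr10 rose by 0.58 ± 0.21 (adjusted p = 0.018), with medians of 63.4 and 103 FPM, and lost its call without A038. The entry Uqcrb.1 on chromosome 7 fell by 0.37 (SE 0.16, adjusted p = 0.043), and this call did not hold with RLE size factors, with DESeq2 or without the 4 libraries. The Rieske protein Uqcrfs1 changed by 0.20 ± 0.09 and 0.18 ± 0.10 (adjusted p = 0.059 and 0.16). Uqcrc2, a core subunit, had the smallest p of the complex in NRK-49F cells, with 0.24 ± 0.10 (adjusted p = 0.07).

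Complex IV, cytochrome c oxidase, held the largest change of all members. Of 13 tested members 4 rose and 1 fell in NRK-52E cells, and 1 rose in NRK-49F cells, while Cox4i2, Ndufa4l2 and Cox7b2 had at most 14, 13 and 10 counts and were not tested. Its summed level was 2007 ± 438 FPM (n = 6) and 2164 ± 266 FPM (n = 6) in NRK-52E cells, and 2443 ± 450 FPM (n = 6) and 2566 ± 683 FPM (n = 5) in NRK-49F cells, differences within the SD of the conditions.

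Cox6a2 is the isoform of subunit VIa known from heart and skeletal muscle, and Cox6a1 is the isoform of most other tissues. In NRK-52E cells at pH 7.4 Cox6a2 had 0.476 (A021), 0.430 (A022), 0.717 (A023), 0.0910 (A033), 0.0545 (A034) and 0.453 FPM (A035), which rested on 1 to 19 counts. At pH 6.0 it had 4.46 (A024), 6.12 (A025), 6.11 (A026), 3.41 (A036), 2.76 (A037) and 5.82 FPM (A038), from 50 to 210 counts. In NRK-49F cells it had 0.175 (A039), 0.445 (A040), 0.338 (A041), 0.379 (A051), 0.166 (A052) and 0.108 FPM (A053) at pH 7.4, from 2 to 10 counts, and 14.0 (A042), 3.72 (A043), 5.53 (A054), 5.63 (A055) and 4.50 FPM (A056) at pH 6.0, from 61 to 275 counts.

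Every acidic sample lay above every sample at pH 7.4 in both lines. The mean FPM was 12.9 times higher at pH 6.0 in NRK-52E and 24.9 times higher in NRK-49F cells, and the log2 fold changes were 3.62 ± 0.41 (adjusted p = 7.1e-08) and 4.63 ± 0.44 (adjusted p = 3.2e-08). Cox6a2 passed the filter on low counts through its acidic samples, where it is high: with the samples at pH 7.4 alone it would not have been tested, the single member of which this held. A gene that enters in this way had to differ, so its p-values add little to the levels above, and with at least 10 counts required in every sample it was not tested. The lines did not differ in this change past the test (difference of -1.01 ± 0.63, adjusted p = 0.21). The 2 groups of samples in each line moved alike, with log2 fold changes of 3.42 and 4.42 in sample groups 1 and 3 and of 4.81 and 4.50 in sample groups 4 and 6. The promoter of Cox6a2 is the one above that holds the C/EBP and ATF letters, and of its 10 nearest tested neighbours on chromosome 1, 2 rose in each line.

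Cox6a1 had medians of 208 and 317 FPM in NRK-52E cells and rose by 0.46 ± 0.20 (adjusted p = 0.048). This call was lost in 14 of the 23 fits that left out a sample, and Cox6a1 changed by 0.09 ± 0.21 in NRK-49F cells. The isoforms of the other subunits showed smaller changes. Cox4i1, the common isoform of subunit IV, changed by -0.22 ± 0.18 and -0.02 ± 0.19, and Cox4i2, an isoform known from lung and low oxygen, stayed at or below 0.713 FPM. Cox6b1 changed by 0.04 ± 0.16 and 0.10 ± 0.16, and Cox7a1, the isoform of muscle, by -0.11 ± 0.23 and 0.22 ± 0.26. Cox7a2l, which helps to join complexes III and IV into supercomplexes, rose by 0.32 ± 0.12 in NRK-52E cells (adjusted p = 0.02), and Cox7a2l2 on chromosome 8 by 0.43 ± 0.18 (adjusted p = 0.042), a call lost in 8 of the 23 fits that left out a sample and in sample group 3 alone. RefSeq places Cox7a2 on chromosome 8 and Cox7a2l2 on chromosome 14, so the symbol of this entry is uncertain. Ndufa4 changed by 0.21 ± 0.14 and 0.04 ± 0.15, and Ndufa4l2, known as a target of the hypoxia factor HIF-1, stayed at or below 0.566 FPM.

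Cox7b, an accessory subunit encoded on the X chromosome, fell by 0.53 in NRK-52E cells (SE 0.17, adjusted p = 0.0085), from a median of 61.4 to 44.0 FPM. In NRK-49F cells its change was 0.27 ± 0.17 (adjusted p = 0.26), with medians of 70.9 and 94.9 FPM, and the difference between the lines was -0.80 ± 0.24 (adjusted p = 0.0098). In NRK-52E cells the change of Cox7b was -0.81 in sample group 3 and -0.05 in sample group 1, and the fall did not pass the test without the 4 libraries (-0.34, adjusted p = 0.054).

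**Figure D3:**
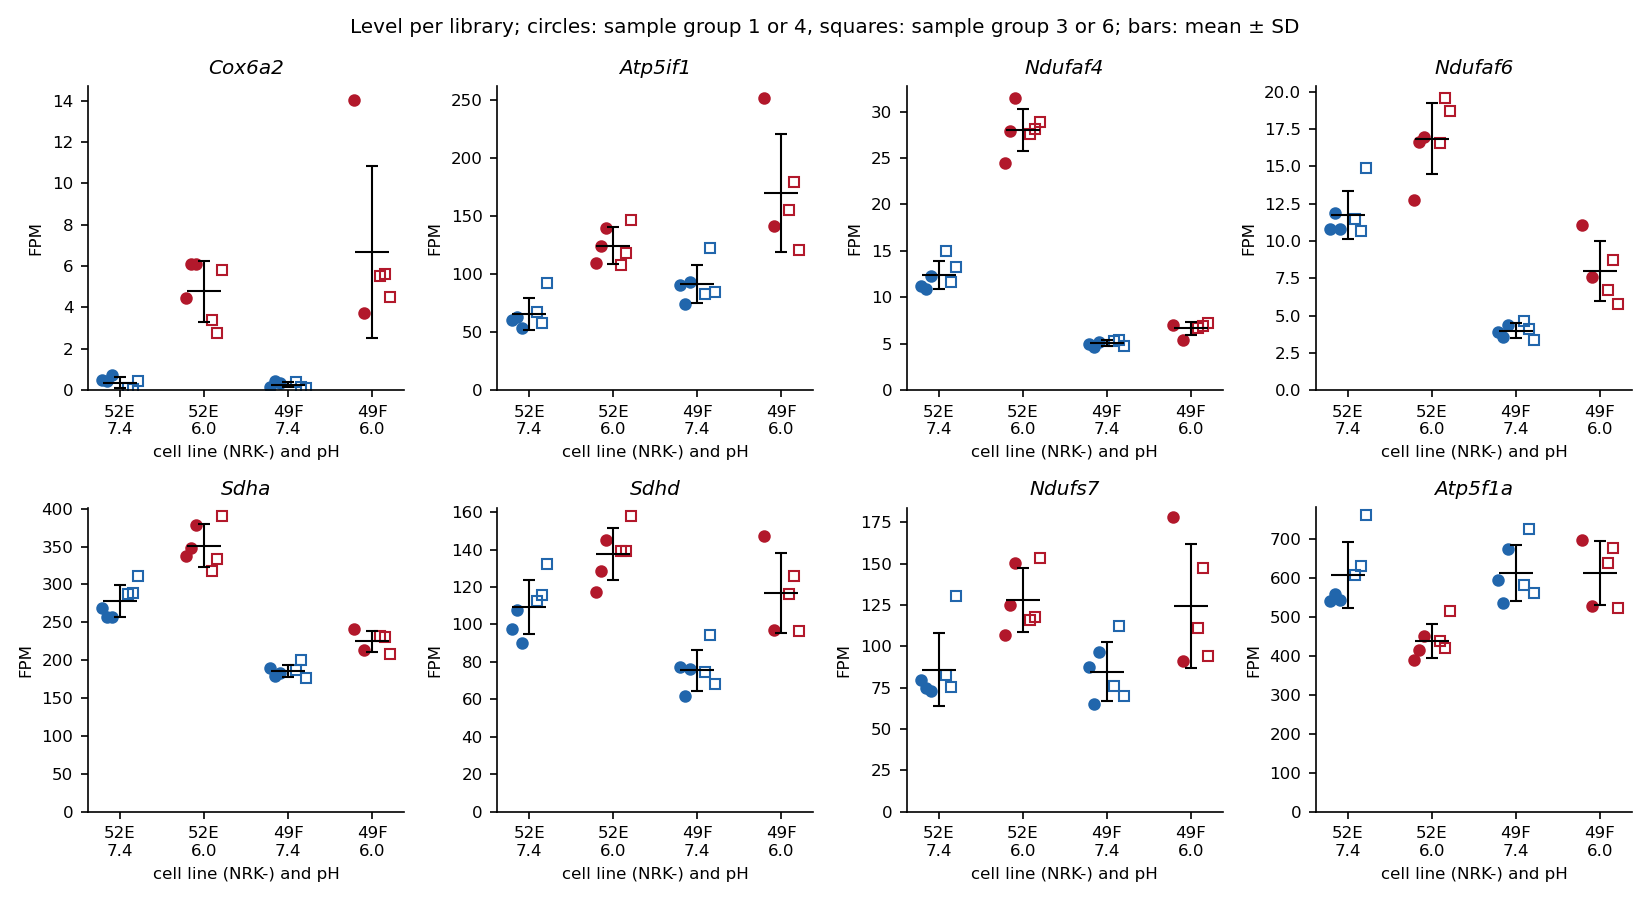
Levels in FPM (vertical axes) of Cox6a2, Atp5if1, Ndufaf4, Ndufaf6, Sdha, Sdhd, Ndufs7 and Atp5f1a in each of the 23 libraries, by cell line and pH, with circles for sample groups 1 and 4 and squares for sample groups 3 and 6. Cox6a2 and Sdha do not overlap between pH values in either line, and Atp5f1a is lower at pH 6.0 in NRK-52E cells without overlap.

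Complex V had 15 tested members, of which 2 rose and 3 fell in NRK-52E cells and 1 rose in NRK-49F cells. Its summed level was 3081 ± 571 FPM (n = 6) and 3137 ± 345 FPM (n = 6) in NRK-52E cells, and 3588 ± 578 FPM (n = 6) and 3963 ± 903 FPM (n = 5) in NRK-49F cells, again within the SD.

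Atp5if1 encodes a small inhibitor that binds the catalytic head and blocks the hydrolysis of ATP by the enzyme. In NRK-52E cells it had 53.6 to 92.0 FPM with a median of 61.4 FPM at pH 7.4 and 108 to 146 FPM with a median of 121 FPM at pH 6.0, without overlap. In NRK-49F cells it had 74.4 to 123 FPM with a median of 87.7 FPM at pH 7.4, and 252 (A042), 141 (A043), 155 (A054), 180 (A055) and 121 FPM (A056) at pH 6.0. There the groups met, since A056 at 121 FPM lay below A052 at 123 FPM. The log2 fold changes were 0.92 ± 0.16 (adjusted p = 1.8e-05) and 0.89 ± 0.16 (adjusted p = 0.00017), and the difference between the lines was 0.03 ± 0.22.

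The catalytic head itself is built from the alpha subunit Atp5f1a and the beta subunit Atp5f1b. Atp5f1a had 542 to 763 FPM with a median of 584 FPM at pH 7.4 and 391 to 516 FPM with a median of 431 FPM at pH 6.0 in NRK-52E cells, without overlap, and fell by 0.47 on the log2 scale (SE 0.10, adjusted p = 0.00036). In NRK-49F cells its change was 0.00 ± 0.11, with medians of 590 and 638 FPM. The difference between the lines was -0.47 ± 0.15 (adjusted p = 0.013). Atp5f1b changed by 0.21 ± 0.13 and 0.23 ± 0.13 (adjusted p = 0.15 and 0.2), and the difference between both subunits was not tested.

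The c subunits form the rotating ring in the membrane. Atp5mc3 fell by 0.46 in NRK-52E cells (SE 0.15, adjusted p = 0.0096), without overlap, and by 0.25 without the 4 libraries (adjusted p = 0.056), whereas Atp5mc2 changed by 0.17 ± 0.12 and 0.16 ± 0.13. Atp5me, the e subunit, fell by 0.47 (SE 0.19, adjusted p = 0.037), and its call was lost with RLE size factors and when any of 6 samples was left out, at the smallest with -0.30 without A035. Atp5mk.1, an entry of 0.807 to 3.11 FPM over all samples, rose by 0.59 ± 0.25 in NRK-52E cells (adjusted p = 0.042) and lost this call when any of 8 samples was left out.

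The question whether both lines changed a member differently was put to the test of the difference. It was passed by 5 of 83 members (6.02%), against 41.4% of all genes. These were Ndufaf1 (-0.89 ± 0.19), Cox7b (-0.80 ± 0.24), Ndufaf5 (-0.59 ± 0.20) and Atp5f1a (-0.47 ± 0.15), whose change was lower in NRK-52E than in NRK-49F cells, and Ndufaf4 (0.78 ± 0.14), whose rise was larger in NRK-52E cells. Of the 5, 3 are assembly factors of complex I. These were 3 of 7 Ndufaf genes (42.9%), near the share of all genes, while 2 of 76 subunits passed (2.63%). All of the 5 but Ndufaf5 passed this test in each fit that left out a sample. The difference of Ndufaf5 was -0.46 without A042 and -0.37 without the 4 libraries, and passed in neither. Without the 4 libraries 16 members passed (19.3%, against 41.8% of all genes). The balance then turned, with 13 changes higher and 3 lower in NRK-52E than in NRK-49F cells. Since these libraries were chosen by the members' own sums, this turn is in part fixed by the choice. With RLE size factors 2 were higher and 4 lower.

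Differences between the lines at pH 7.4 reached 31 of 83 members, 11 higher in NRK-52E and 20 higher in NRK-49F cells. Over all genes 68.8% differed, 35% with the higher level in NRK-52E and 33.9% with the higher level in NRK-49F cells. Without A035 alone 43 members differed (51.8%, against 69.8% of all genes). Without the 4 libraries 49 did (59%, against 70.2% of all genes), of which 10 were higher in NRK-52E and 39 in NRK-49F cells. Of all genes that differed in that fit, 45.1% were higher in NRK-52E cells. With library size alone the balance turned to 18 higher in NRK-52E and 15 higher in NRK-49F cells, and the median log2 ratio of all genes moved from 0.02 to 0.21. The largest differences towards NRK-49F cells were in 3 complex I subunits on chromosome 1. Ndufs8 had 59.3 to 118 FPM in NRK-52E and 210 to 390 FPM in NRK-49F cells (log2 ratio -1.81 ± 0.19), Ndufb8 36.9 to 70.2 and 125 to 218 FPM (-1.75 ± 0.18), and Ndufv1 110 to 209 and 344 to 513 FPM (-1.55 ± 0.15), each without overlap. Towards NRK-52E cells the largest were Ndufaf6 (1.55 ± 0.15), Ndufaf4 (1.29 ± 0.10) and Cox7a1 (1.01 ± 0.24), the last at low levels of 1.75 to 2.78 FPM against 0.832 to 1.55 FPM. Sdha (0.58 ± 0.07) and Sdhd (0.53 ± 0.11) were also higher in NRK-52E cells.

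The neighbours of Ndufs8, Ndufv1, Ndufb8, Ndufaf4 and Ndufaf6 on the chromosome, in the order of RefSeq on GRCr8, leaned the same way as these genes. These stretches were chosen after the values were seen, and those of Ndufs8 and Ndufv1 share most of their genes. Those of Ndufaf4 and Ndufaf6 share the genes from Runx1t1 to Rmdn1, most of them higher in NRK-52E cells, so their counts are not separate. Of the 25 tested genes on each side of Ndufs8, 45 of 50 were higher in NRK-49F cells, with a median log2 ratio of -1.42, and around Ndufv1 43 of 50 were, with -1.26. On the whole of chromosome 1, 671 of 1538 tested genes (43.6%) were higher in NRK-49F cells, with a median of -0.15. Around Ndufb8 33 of 50 neighbours were higher in NRK-49F cells (median -0.54). On chromosome 5, 41 of 50 neighbours of Ndufaf4 were higher in NRK-52E cells (median 0.95) and 27 of 50 neighbours of Ndufaf6 (median 0.31), against 304 of 809 genes (37.6%) of the chromosome with a median of 0.04. The number of copies of these stretches in each line was not measured.

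**Figure D4:**
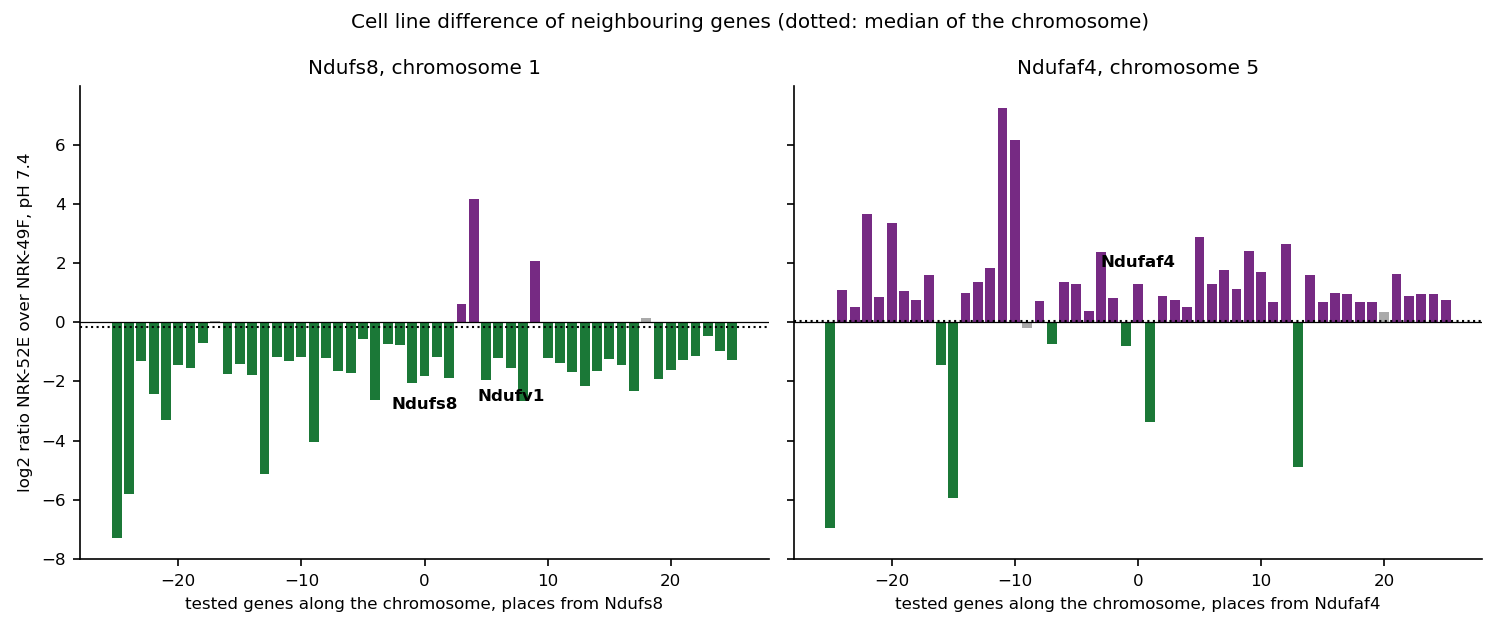
Log2 ratio of NRK-52E to NRK-49F cells at pH 7.4 (vertical axis) of the 25 tested genes on each side of Ndufs8 (chromosome 1) and of Ndufaf4 (chromosome 5), by their order along the chromosome (horizontal axis). Green bars are genes higher in NRK-49F and purple bars genes higher in NRK-52E cells past the test, grey bars did not pass, and the dotted line is the median of the chromosome. Most neighbours of Ndufs8 lie below 0, with a median of -1.42, and most neighbours of Ndufaf4 above 0, with a median of 0.95.

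What a sample group stands for is not given, and each was compared on its own as a possible batch. All 27 members called in NRK-52E cells had the same sign in sample groups 1 and 3, and all 11 called in NRK-49F cells had the same sign in 4 and 6. These calls came from the pooled samples of the same groups, so the shared sign was largely fixed in advance and says little about a batch. The level of the whole set differed more: 68 of the 83 members were higher at pH 6.0 in sample group 1 (median 0.24) and 48 in sample group 3 (median 0.07), and 80 in sample group 4 (median 0.32) against 48 in sample group 6 (median 0.05). The highest libraries A035 and A038 belong to sample group 3, A042 to sample group 4 and A052 to sample group 6. In the test of whether the pH change differed between sample groups, 0 members passed in NRK-52E cells (2 at an unadjusted p under 0.05) against 10.6% of all genes, and 0 in NRK-49F cells (0 unadjusted) against 0% of all genes, with 596 genes unadjusted. Fitted alone, sample group 1 called 50 members (60.2%, against 61.4% of all genes) and sample group 3 called 20 (24.1% against 60.7%). Sample group 4 called 4 (4.76% against 8.7%) and sample group 6 called 2 (2.41% against 16%). The share of members called thus lay near that of all genes in sample group 1 and below it in the other 3. The rise of Atp5if1 was 1.16 and 0.86 in sample groups 1 and 3 and 1.18 and 0.64 in 4 and 6, and that of Ndufaf4 was 1.36 and 1.16 in 1 and 3.

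Other genes that serve the same complexes were counted from lists of general knowledge, for a view of where the members stand. Of 7 further assembly factors of complex I, 3 rose and 3 fell in NRK-52E cells, led by Foxred1 (0.73) and Nubpl (-0.76), and 2 rose in NRK-49F cells, led by Ecsit (0.39). Of 7 factors of complexes II and III, 1 rose (Uqcc1, 0.36) and 2 fell, led by Lyrm7 (-1.03), in NRK-52E cells, with 0 called in NRK-49F cells. Of 17 factors of complex IV, 4 rose and 5 fell in NRK-52E and 5 rose in NRK-49F cells, among them Cox18 (0.91 and 0.60) and Higd1a (0.77 and 0.85), while Sco2 fell by 2.24 in NRK-52E cells. Of 5 factors of complex V, 2 fell in NRK-52E cells, Tmem242 by 0.66 and Atpaf1 by 0.54, and 0 were called in NRK-49F cells. The median log2 fold changes of these 4 lists were 0.04, -0.20, -0.23 and -0.08 in NRK-52E and 0.19, 0.11, 0.14 and -0.11 in NRK-49F cells, beside -0.12 and 0.00 over all genes.

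Among 17 mobile electron carriers and enzymes of ubiquinone synthesis, 8 rose and 4 fell in NRK-52E cells, and 6 rose and 1 fell in NRK-49F cells. Cycs, which encodes cytochrome c, rose by 1.26 in NRK-52E cells, Coq10a by 1.32 there and by 0.64 in NRK-49F cells, while Coq4 fell by 1.95 in NRK-52E cells. Coq8b had the largest rise in NRK-49F cells (0.82), and Coq10b, which rose by 0.74 in NRK-52E cells, changed by -0.31 in NRK-49F cells. Of 13 genes of the citric acid cycle, 4 rose and 4 fell in NRK-52E cells, with Idh3a (-0.79) as the largest fall, and 4 rose in NRK-49F cells, led by Suclg1 (0.58). The medians of both lists were 0.16 and -0.01 in NRK-52E and 0.21 and 0.14 in NRK-49F cells.

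The mitochondrial ribosome, which makes the mitochondrially encoded partners, had 70 tested genes, of which 20 rose and 14 fell in NRK-52E cells and 14 rose in NRK-49F cells, with Mrps16 at 1.14, Mrpl19 at -0.71 and Mrps6 at 0.82 in NRK-49F cells as the largest changes. Of 20 genes of protein import, 3 rose and 4 fell in NRK-52E cells, led by Timm23 (0.92) and Timm22 (-0.96), and 4 rose in NRK-49F cells, led by Tomm40l (0.98), which fell by 0.34 in NRK-52E cells. Among 16 regulators of mitochondrial genes, 4 rose and 6 fell in NRK-52E cells and 1 rose and 3 fell in NRK-49F cells. Gabpa, whose protein binds the ETS letters above, fell by 0.77 in NRK-52E cells, with -0.09 in NRK-49F cells, and Gabpb2 fell by 0.86. Nrf1, whose protein binds the letters searched in Sdha, had -0.20 and -0.15, neither past the test. Tfb1m rose by 1.09 in NRK-52E cells, Polrmt, the mitochondrial RNA polymerase, by 0.27 in NRK-49F cells, where Gabpb1 fell by 0.55, and the coactivator gene Ppargc1a was too low to be tested. The medians of the ribosome, import and regulator lists were 0.07, -0.01 and -0.06 in NRK-52E and 0.25, 0.07 and -0.03 in NRK-49F cells.

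**Figure D5:**
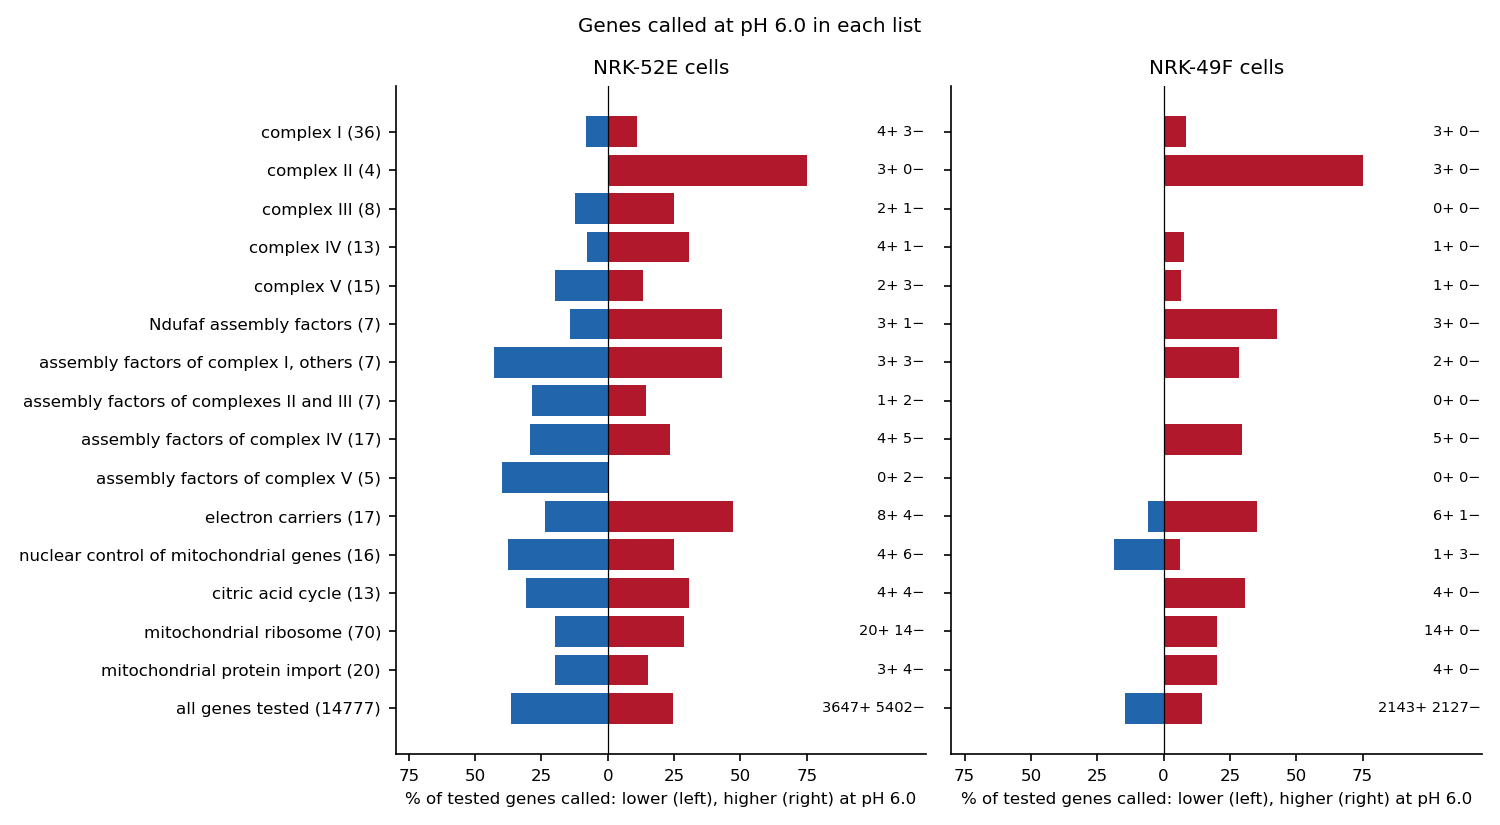
Share of the tested genes called higher (to the right) and lower (to the left) at pH 6.0 (horizontal axes, percent), with the numbers of genes at the right, for the complexes, the assembly factors and the other mitochondrial lists, in both lines. Falls appear in every list but complex II for NRK-52E cells, while among the members those of NRK-49F cells were called upwards only, 11 of 83.

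Around the limit of 10 counts, Cox7b2 just passed with a maximum of 10 counts, followed by Ndufa4l2 with 13 and Cox4i2 with 14. Just outside were the Uqcrb entry on chromosome 1 with at most 5 counts and Cox8c with 2, and the entries Cox6b1.ps1, Ndufb2.1 and Cox6c.ps1 were at 0. A further 3 matching symbols were not protein-coding and were left out, namely Ndufs6, listed as a pseudogene, and the entries Atp5mc1 and Atp5mc1.1, listed as long non-coding RNA. Several members have near-identical entries in the table, such as Ndufs5 and Ndufs5.1 or Ndufa10l1 and Ndufa10l1.1. Since reads that map to several places were counted, the split between such entries is uncertain.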

How the data were processed

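Poly(A) RNA of rat cell lines was sequenced in read pairs. The deposited values are raw counts per Ensembl gene, which the authors made by mapping with HISAT2 and counting exons with featureCounts, multi-mapping reads included and without normalization. The submitters' processing notes name HISAT2 2.1.0 and build rn6, the methods rn7, and the strand setting is not given in the sources used here. Bicarbonate in the medium is 1.5 g/l in the labels and 2 g/l in the methods. Of the per-sample columns, 23 were used, and 13 that matched no sample label were not. No pair of libraries was alike within sampling noise (smallest chi-square per gene 5.91).

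All 23 samples were fitted in a model of 4 conditions with edgeR 4.0.16 in R 4.3.3 (filterByExpr with a minimum count of 10 and total of 15, TMM, quasi-likelihood test, Benjamini-Hochberg over 14777 genes), and in a model of 8 conditions for the sample groups. FPM came from cpm on the TMM-scaled library. An adjusted p under 0.05 was called, and the standard error was the log2 fold change divided by the root of F. Sums are means ± SD with no test. Levels of different genes were not compared, since no transcript lengths were used. Alternatives changed the scaling, the tool (DESeq2 1.42.0), the filter, the genes tested, the samples and the block. A fit without 4 libraries and a fit with the ribosomal protein sum as a covariate were chosen after seeing the data. The 4 libraries were those with the highest subunit sum of each condition. The covariate was the log2 of the sum minus the mean of its condition.

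The members and lists were chosen with earlier results of these data known, as were the promoter letters and the stretches of neighbours. The letters for nuclear respiratory factor 1 were shortened by 1 after the counts with the longer form had been seen, and the shorter form matches more promoters, of members and of all genes. Named are the 2 largest rises and falls per complex and line (or the smallest p), core subunits, isoforms, the largest differences between lines, the extremes of each list and members near the count limit. Ndufab1, Ndufb2, Cox7a2l2, Atp5mk.1, Ndufaf2, Ndufaf7 and neighbouring genes outside this rule were named after their values were seen. A few genes within this rule are left unreported. Of these steps, only the edgeR fit of 4 conditions was checked on simulated counts, for the pH change of each line and their difference. Python 3.11.15 with matplotlib 3.10.9 drew the figures.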

Additional observations from a re-analysis of the deposited data

Results flagged for a closer look

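A sample lay far from the others of its condition (by Dixon's ratio at the 95% level) in 22 of 156 groups of samples checked over 39 members, where chance alone flags about 1 in 20. In NRK-52E cells at pH 7.4, 18 of these values belonged to a single library, A035, which was the highest in each: Ndufs7 (130 FPM), Ndufa1 (58.6), Ndufa11 (187), Ndufc1 (59.6), Ndufs8 (118), Ndufv1 (209), Ndufb8 (70.2), Ndufaf6 (14.9), Sdhb (130), Uqcr10 (115), Cyc1 (155), Cox6a1 (358), Cox4i1 (746), Cox6b1 (183), Ndufa4 (200.1), Atp5if1 (92.0), Atp5me (55.4) and Atp5mc3 (258 FPM). The genes are not independent here, since they come from the same library, which also had the highest sums of subunits and of ribosomal proteins in its condition. At pH 6.0 in NRK-52E cells Ndufa1 was far above the others in A038 (29.6 FPM) and Ndufaf1 far below them in A024 (6.48 FPM). In NRK-49F cells Atp5me was far above the others in A052 at pH 7.4 (50.3 FPM) and Cox6a2 in A042 at pH 6.0 (14.0 FPM).

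The change from pH 7.4 to pH 6.0 differed between the cell lines past the test of the difference for 5 members. The log2 difference (NRK-52E minus NRK-49F) was -0.47 for Atp5f1a, -0.80 for Cox7b, 0.78 for Ndufaf4, -0.89 for Ndufaf1 and -0.59 for Ndufaf5.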

How the results depend on the processing

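Members called in NRK-52E cells numbered 27, against 50 with sample group 1 alone, 43 without the 4 highest libraries, 53 with the ribosomal protein sum as a covariate (63.9%, against 68.7% of all genes), and 19 (without A021) to 35 (without A035) with a sample left out. In NRK-49F cells 11 were called, against 4 with sample group 4 alone, 2 with sample group 6 alone, 39 with the covariate (47%, against 40.7% of all genes, where the shares without it were 13.3% and 28.9%) and 8 to 17 with a sample left out. Differences between the pH changes were called for 5 members, against 10 with library size alone, 16 without the 4 libraries, 35 with the covariate and 5 to 10 with a sample left out (10 without A056). Differences between the lines at pH 7.4 were called for 31, against 49 without the 4 libraries, 57 with the covariate and 27 (without A022) to 43 (without A035) with a sample left out. With the covariate, 42.2% of members against 51% of all genes differed in their pH change. Between the lines at pH 7.4 the shares were 68.7% and 75.6% with the covariate. Sample groups 1 and 3 differed for 12 members with the covariate, and for 0 with any sample left out, as did 4 and 6. The cause was not tested. With a sample left out the median change ranged from 0.04 to 0.21 in NRK-52E and from 0.03 (without A042) to 0.26 (without A052) in NRK-49F cells. A call in all settings that tested the member and with each sample left out was kept by 12 of 27 members in NRK-52E cells (Cox6a2, Sdha, Ndufa3, Ndufaf1, Ndufaf4, Sdhb, Atp5if1, Ndufaf6, Ndufa1, Sdhd, Ndufaf3, Atp5f1a) and by 2 of 11 in NRK-49F cells (Cox6a2, Ndufaf6). Cox6a2 was tested in 11 of the 12 settings, not with at least 10 counts in every sample. Among 39 named members, 1 of 5222 alternative values was called with the opposite sign: the line difference of Atp5f1a at pH 7.4 was 0.17 with library size alone (-0.01 with TMM). A further 214 values changed sign without a call in either fit, 115 lost a call and 159 gained one. No paired analysis was possible because no replicate code occurs at both pH values. With the sample group as a block, 31 members were called in NRK-52E cells (37.3%, against 63.6% of all genes) and 14 in NRK-49F cells (16.9%, against 33.4%). At this depth 3 counts correspond to 0.0839 to 0.203 FPM, near the level of Cox6a2 at pH 7.4.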
